A study of Rattus norvegicus with 3 samples.

Results

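Secretory ameloblasts, the epithelial cells that lay down enamel, were compared with cells of the cervical loop, the growing end of the rat incisor from which they arise. RNA was sequenced from cell populations dissected from enamel organs of Wistar Hannover rats. No transgene, mutation or treatment is named for either group. Per the labels, the cell populations came from 5 rats and libraries are numbered by rat, RNA with an integrity number under 7 was not used, and 1 cervical loop library (rat 1) was left out under that limit. All 16516 genes of the gene table and all 9949 transcripts of the transcript table for this pair of stages were used, and 2 of the 3 deposited samples. The groups are defined by dissection, so each can hold neighbouring cell types, and fewer cells of a type cannot be told apart from less RNA per cell.

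The rat incisor grows throughout life. Epithelial progenitors in the cervical loop divide, stop dividing, polarise and become secretory ameloblasts, which release amelogenin, ameloblastin and enamelin at their apical end while their base faces the stratum intermedium. Fibroblast growth factors (FGFs), Wnts, bone morphogenetic proteins (BMPs) and hedgehog ligands pass between this epithelium and the neighbouring mesenchyme and set the balance between renewal and differentiation.

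Each sample is 1 least-squares mean per gene, in a unit that is not stated, so no spread stands beside a value. Pairs of values below give the cervical loop first and the secretory stage second. The fold is the ratio of those means, and the adjusted p is the deposited p-value of the authors' test after a Benjamini-Hochberg correction for all genes in the table, with a threshold of 0.05. How many libraries stand behind each mean, and whether the authors' test paired libraries of 1 rat, is not stated in the labels or headers. These p-values measure only the spread between those libraries, which may be partly technical. Whether the means are scaled per length is not stated, so levels of single genes are compared between stages. Ranks of the largest means and shares of the summed means depend on that unknown unit. Of all genes 41.8% passed, 16.5% higher and 25.2% lower in secretory ameloblasts, and the counts of list members below are to be read against these shares. Passing together with a fold of at least 2 were 6.38% of genes higher and 9.91% lower. The median log2 ratio over all genes was -0.14. The means summed to 436717 in the cervical loop and 612568 in the secretory stage. Without the 13 genes that were among the 10 largest of either stage the sums were 371239 and 405354, and scaling to these moves every log2 ratio by -0.13.

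The marker genes followed the labels. Ameloblastin (Ambn) stood at 1306 in cervical loop cells and 61048 in secretory ameloblasts, amelogenin (Amelx) at 1152 and 37121 and enamelin (Enam) at 419.5 and 13468. The proliferation gene Mki67 stood at 289 and 38.8, and Sox2, a stem cell transcription factor, at 3.33 and 0.523. Cervical loop samples were thus not free of matrix transcripts, and the secretory samples held some of the dividing cell transcript. In the plot of all genes the 3 matrix genes lie far above the diagonal.

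**Figure D1:**
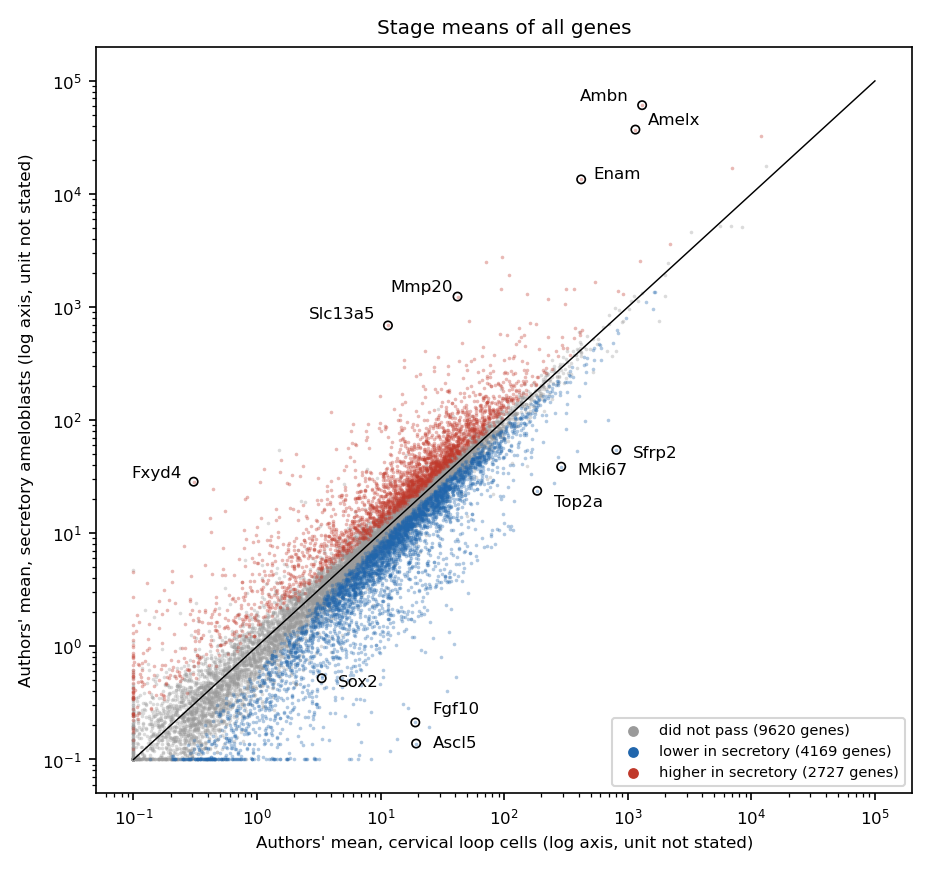
Each point is 1 of 16516 genes, with the authors' mean in cervical loop cells on the x axis and in secretory ameloblasts on the y axis (both log axes, unit not stated). Means at or below 0.1 are drawn at 0.1, the line marks equal means, and Ambn, Amelx and Enam lie above it at the high end of the y axis, with Ascl5 and Fgf10 far below.

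Promoter sequences of genes that carry the main changes are shown first, as stretches before the annotated start taken from RefSeq on the rat build GRCr8, written 5′ to 3′ on the gene's strand. The submitters' processing notes name build rn6 for the stage means, so these coordinates belong to the sequences alone. Of the genes in the table, 10323 matched 1 promoter each by symbol, and motifs were searched on both strands in the 250 bases before the start. A match describes letters and is not a binding site.

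The 4 matrix genes with the largest folds are shown as the 120 bases next to the start. Capitals mark the CCAAT box (CCAAT, or ATTGG where it lies on the other strand).
Ambn (chr14:19898423-19898542, minus strand): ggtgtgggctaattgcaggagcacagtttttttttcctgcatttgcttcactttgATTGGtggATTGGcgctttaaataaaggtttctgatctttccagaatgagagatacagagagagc
Amelx (chrX:28648683-28648802, plus strand): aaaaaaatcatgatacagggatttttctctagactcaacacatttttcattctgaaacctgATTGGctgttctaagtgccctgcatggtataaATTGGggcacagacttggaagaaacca
Enam (chr14:19865477-19865596, minus strand): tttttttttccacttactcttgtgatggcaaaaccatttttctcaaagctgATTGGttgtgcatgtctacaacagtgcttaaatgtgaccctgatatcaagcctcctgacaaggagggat
Mmp20 (chr8:13074159-13074278, plus strand): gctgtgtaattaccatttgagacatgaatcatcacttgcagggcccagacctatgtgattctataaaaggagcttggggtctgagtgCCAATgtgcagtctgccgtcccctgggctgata
Ambn, Amelx and Enam each hold the letters on the reverse strand, with the farthest copy shown starting 65, 59 and 69 bases before the start, and Mmp20 holds them on the forward strand 33 bases before it. The box was present in 9 of 12 matrix list promoters and in 34.9% of all 10323. It was also common in promoters of lists that fell, 16 of 26 for replication and 17 of 25 for mitosis, and stood in 22 of 28 for folding.

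Genes that fell with cell division are shown by the cell cycle homology region (CHR, TTTGAA) of mitotic genes and by E2F sites (TTTCCCGC, TTTGGCGC, TTTGCCGC or TTTCGCGC) of replication genes, in capitals.
Ect2 (chr2:111966746-111966811, minus strand): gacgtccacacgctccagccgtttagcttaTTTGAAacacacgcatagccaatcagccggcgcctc
Birc5 (chr10:103572108-103572145, plus strand): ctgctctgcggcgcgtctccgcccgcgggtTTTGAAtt
Cdc20 (chr5:137255815-137255880, minus strand): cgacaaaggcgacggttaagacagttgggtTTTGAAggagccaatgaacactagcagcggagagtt
Mcm5 (chr19:13488775-13488812, plus strand): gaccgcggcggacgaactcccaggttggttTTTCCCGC
Gins1 (chr3:160184869-160184919, plus strand): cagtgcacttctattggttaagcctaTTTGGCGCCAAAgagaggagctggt
TTTGAA stood in 11 of 25 mitosis promoters (44%) against 10.5% of all, and an E2F site in 7 of 26 replication promoters (26.9%) against 3.12% of all. All 31 measured mitosis genes and 31 of 32 replication genes fell, so members with and without these letters fell alike. An E2F site also stood in 3 of 28 folding promoters (10.7%), where Dnajb9 and Edem3 rose and Uggt1 did not pass. TTTGAA also stood in 1 of 12 matrix promoters, that of Ambn, which rose.

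The endoplasmic reticulum stress element (ERSE, CCAAT and CCACG with any 9 bases between) is shown in capitals for 3 genes of protein folding, on the reverse strand in Creld2.
Xbp1 (chr14:84604528-84604606, plus strand): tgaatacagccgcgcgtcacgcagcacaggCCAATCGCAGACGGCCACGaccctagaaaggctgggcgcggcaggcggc
Creld2 (chr7:121789209-121789287, plus strand): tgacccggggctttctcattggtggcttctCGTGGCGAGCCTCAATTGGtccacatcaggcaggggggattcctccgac
Hspa5 (chr3:38452943-38453015, plus strand): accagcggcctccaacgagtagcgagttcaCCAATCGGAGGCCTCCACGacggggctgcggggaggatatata
It stood in 8 of 28 folding promoters (28.6%), in 0 of 25 promoters of genes of entry into the endoplasmic reticulum, in 0 of 38 of vesicle transport to the Golgi, and in 0.136% of all. Of the 8 genes, 3 were higher in secretory ameloblasts (Hspa5, Dnajc3 and Xbp1), Creld2 was lower, and Hsp90b1, Canx, Calr and Ero1b did not pass. ERSE always holds a CCAAT box, so the counts of the 2 motifs overlap.

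Genes of the enamel matrix and its processing had the highest median ratio of the 25 functional lists, marker lists aside. Of the list, 11 of 14 measured members rose, 0 fell and 3 did not pass, with a median log2 ratio of 2.67. Ambn rose 46.7-fold (adjusted p = 0.00195 by the authors' test), Amelx 32.2-fold and Enam 32.1-fold. The summed transcript means of Amelx, from the second deposited table, were 2579 and 36837, which is 14.3-fold higher. Mmp20, the protease that cleaves matrix proteins during secretion, stood at 41.9 and 1239 (29.6-fold higher). These 4 genes were among the 15 highest ratios of the table by the rule for naming genes, which ranks called genes with both means above 0.1 and the larger at least 10.

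Genes that modify the matrix moved less. Acp4, an acid phosphatase of enamel formation, stood at 15.6 and 343 (22-fold higher). Fam20c, the Golgi kinase that phosphorylates secreted enamel proteins, stood at 35.5 and 187 (5.25-fold higher), and its partner Fam20a, a pseudokinase, at 34.4 and 183 (5.3-fold higher). The rise of the 2 partners was of almost equal size. Amtn, a protein of the late enamel surface, stood at 43.4 and 332 (7.64-fold higher), and Wdr72, needed in the maturation stage, at 7.32 and 21.7 (2.97-fold higher). Klk4, the late protease (2.25 and 19.3, adjusted p = 0.0891 by the authors' test), and Odam (29.3 and 127, adjusted p = 0.191) did not pass. The dentin gene Dspp, made mostly by odontoblasts, did not pass either (81.7 and 22.2, adjusted p = 0.0707 by the authors' test).

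Genes of anchorage to the basement membrane were mostly higher. Of the laminin and hemidesmosome list, 11 of 18 measured members rose, 2 fell and 5 did not pass (median log2 ratio 0.60). Lamb3, the beta chain of laminin-332, stood at 94.9 in cervical loop cells and 1444 in secretory ameloblasts (15.2-fold higher, adjusted p = 0.000542 by the authors' test). Of other laminin chains, Lamc1 was 1.51-fold higher, Lamb1 stood at 88 and 96.7, adjusted p = 0.351 by the authors' test, and Lama5 at 56.8 and 43.5 (1.31-fold lower).

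Integrin chains moved both ways. Itgb6, which partners the alpha-v integrin chain, stood at 33.5 and 212 (6.33-fold higher), Itga3 at 23.1 and 76.3 (3.31-fold higher) and Itgb4, of the hemidesmosome, at 94.9 and 203 (2.13-fold higher). Itga6, the usual partner of Itgb4, stood at 285 and 178 (1.6-fold lower, adjusted p = 0.00222 by the authors' test), so the 2 chains of 1 integrin moved in opposite directions. The hemidesmosome plaque gene Dst stood at 368 and 1442 (3.92-fold higher) and its transmembrane collagen Col17a1 at 99.9 and 337 (3.38-fold higher). Plec, a further plaque protein, did not pass (282 and 303, adjusted p = 0.584 by the authors' test). The 18 genes together made up 0.55% of the summed means in the cervical loop and 1.33% in the secretory stage.

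Cell junction genes moved both ways. Of 30 claudins, cadherins, desmosome and related genes, 10 rose and 5 fell. Tight junction genes moved both ways. Cldn1 stood at 26.8 and 298 (11.1-fold higher, adjusted p = 0.00081 by the authors' test). Nectin3 rose 4.21-fold, the junction adhesion molecule F11r 3.39-fold and the tight junction scaffold Tjp1 2.6-fold, while the claudins Cldn3 (0.654 and 0.131) and Cldn4 (3.56 and 1.67) fell from low values. Desmosomal genes also moved both ways. Dsg3 stood at 13.8 and 2 (6.88-fold lower), Dsc2 at 66.4 and 32.5 (2.05-fold lower) and Dsp at 235 and 146 (1.61-fold lower), while Perp and Pkp3 rose 2.22-fold and 1.39-fold. Dsg2 (68.4 and 56.8, adjusted p = 0.205 by the authors' test), Dsc3 (162 and 121, adjusted p = 0.0549), Jup (57.8 and 63.3, adjusted p = 0.534) and Pkp1 (73 and 63.4, adjusted p = 0.39) did not pass. Cdh2 stood at 43 and 99.4 (2.31-fold higher) and Cdh1, the epithelial cadherin, at 171 and 215, adjusted p = 0.333 by the authors' test. Gja1, a gap junction channel, stood at 835 and 1378 (1.65-fold higher).

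Cell division genes were lower almost throughout. Of 32 DNA replication genes 31 fell (median log2 ratio -2.01), and all 31 measured mitosis and kinetochore genes fell (median -2.88), against 25.2% of all genes. Mcm5, of the replicative helicase, stood at 27.9 in cervical loop cells and 3.44 in secretory ameloblasts (8.11-fold lower, adjusted p = 0.000424 by the authors' test), and Mcm10 at 21.2 and 1.96 (10.8-fold lower). Bub1, a kinetochore kinase, stood at 33.9 and 5.38 (6.3-fold lower), Top2a, which untangles chromosomes, at 185 and 23.7 (7.79-fold lower), and Cdc20, an activator of the anaphase-promoting complex, at 23.8 and 2.97 (8.04-fold lower). The log2 ratios of the 31 mitosis genes ran from -3.42 to -1.96, a narrow band in the plot of the lists, and none of these genes reached 0 in the secretory stage. Gins2, of the helicase complex, was the 1 replication gene that did not pass (25.5 and 29.7, adjusted p = 0.119 by the authors' test), while its partner Gins1 fell 5.8-fold (3.13-fold with 1 added to each mean). Together the 63 replication and mitosis genes made up 0.483% of the summed means in the cervical loop and 0.0677% in the secretory stage.

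Regulators of cell cycle entry fell, and several brakes rose. Ccnd1, the cyclin of early G1, stood at 112 and 10.8 (10.3-fold lower, adjusted p = 0.000424 by the authors' test). The growth regulators Mycn and Myc fell 6.12-fold and 4.02-fold, and the S phase activator E2f1 4.04-fold. Cdkn1a (p21) stood at 39.7 and 154 (3.87-fold higher, adjusted p = 0.00868 by the authors' test) and Rb1, the retinoblastoma protein, at 14 and 52 (3.72-fold higher, adjusted p = 0.00144). Other CDK inhibitors did not share this direction: Cdkn1b (p27) stood at 29.6 and 29.4, adjusted p = 0.926 by the authors' test, Cdkn2c fell 3.1-fold, and Cdkn1c (p57) fell 1.53-fold. Of the 24 genes of this list 5 rose and 15 fell. Among chromatin regulators 12 of 27 fell and 2 rose, with Hmgb2 at 50.3 and 7.67, the maintenance methyltransferase Dnmt1 at 65.4 and 22.3 and the polycomb enzyme Ezh2 at 23.5 and 8.15.

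**Figure D2:**
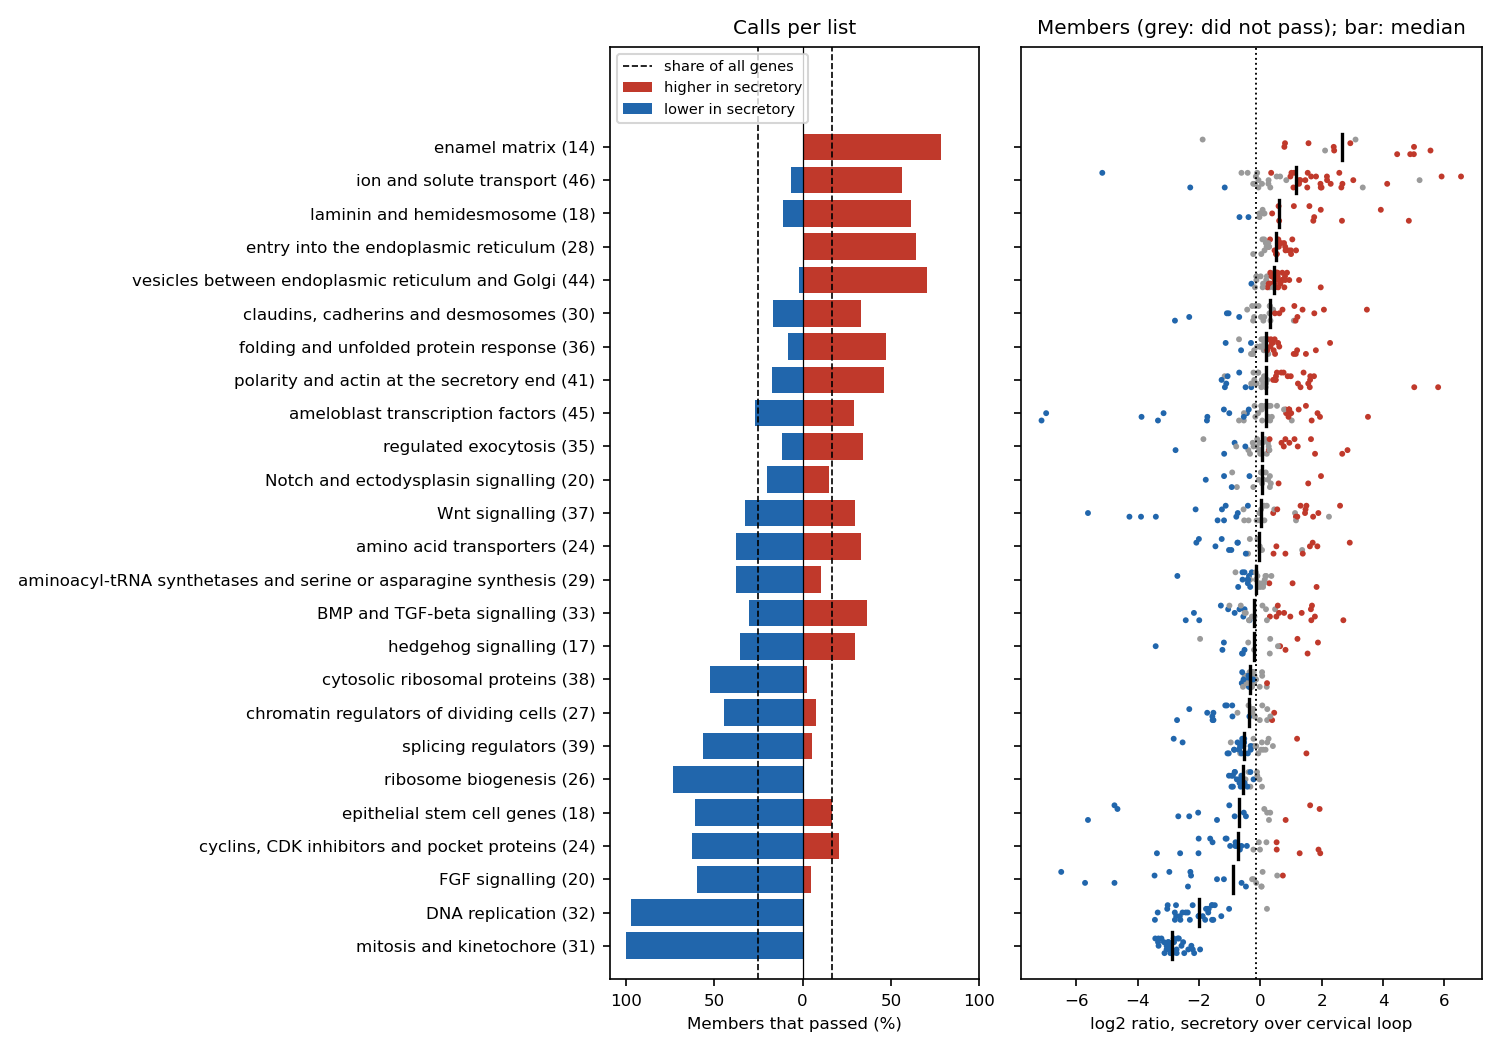
Left, the percentage of measured members (number in brackets) of each of 25 gene lists that were higher (red) or lower (blue) in secretory ameloblasts, with dashed lines at the shares of all genes, 16.5% and 25.2%. Right, the log2 ratio of each member, grey where it did not pass, with the list median as a bar and the median of all genes, -0.14, as a dotted line. Mitosis and replication lie lowest and enamel matrix highest.

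Stem cell genes of the cervical loop fell in part. Of the list, 3 of 18 measured members rose, 11 fell and 4 did not pass, and 6 fell when genes with a larger mean under 10 were left out. Sox2 fell 6.38-fold (adjusted p = 0.00933 by the authors' test) and Lgr5, a stem cell receptor, stood at 0.427 and 0.105 (adjusted p = 0.0427). Both are low in each stage, and with 1 added to each mean the falls are 2.85-fold and 1.29-fold. Bmi1, a polycomb gene of self-renewal (10.1 and 11.8, adjusted p = 0.208 by the authors' test), Lrig1 (5.99 and 6.56, adjusted p = 0.537) and Abcg2 (3.66 and 4.45, adjusted p = 0.107) did not pass. Igfbp5 stood at 544 and 1676 (3.08-fold higher) and Cd44, the hyaluronan receptor, at 131 and 499 (3.82-fold higher).

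Most FGF ligands and targets were lower, and 2 of 5 receptors. Of 20 members 12 fell and 1 rose (median log2 ratio -0.90). Among 6 ligands, 1 rose, 4 fell and 1 did not pass. Fgf10, which maintains the cervical loop, stood at 19.1 in cervical loop cells and 0.212 in secretory ameloblasts (89.8-fold lower, adjusted p = 0.000357 by the authors' test; 16.6-fold with 1 added to each mean). Fgf9, an epithelial ligand, stood at 7.63 and 0.7 (10.9-fold lower, 5.08-fold with 1 added), and Fgf3 at 2.88 in the cervical loop and below the floor of 0.1 in secretory ameloblasts (adjusted p = 0.000424 by the authors' test). Fgf1 was the ligand that rose (6 and 9.99, 1.66-fold).

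Targets and feedback inhibitors of the pathway were lower in most cases. Among 9 of them, 0 rose, 6 fell and 3 did not pass. Etv4, a transcription factor, stood at 36 and 1.34 (27-fold lower, adjusted p = 0.000741 by the authors' test; 15.9-fold with 1 added to each mean) and Etv5 at 36.1 and 13.6 (2.66-fold lower). Dusp6, a phosphatase of the ERK kinases, fell 5.13-fold, and the Sprouty genes Spry4 and Spry2 fell 4.86-fold and 4.78-fold. Spry1 did not pass (23.5 and 20.1, adjusted p = 0.406 by the authors' test). Il17rd, an FGF receptor antagonist, stood at 33 and 4.23 (7.81-fold lower). Receptors had smaller ratios: Fgfr2 stood at 147 and 107 (1.38-fold lower), Fgfr3 at 31.4 and 20.5 (1.53-fold lower) and Fgfr1 at 210.4 and 222, adjusted p = 0.57 by the authors' test.

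Markers of the mesenchyme, which is known to make Fgf10, Fgf3 and Fgf7, were present in both stages. Of 13 mesenchyme markers 1 rose, 3 fell and 9 did not pass, with summed means of 11486 and 11622. Col1a1 and Col1a2 make up much of these sums. By their means 10 of the 13 markers were lower in the secretory stage (median log2 ratio of the list -0.37). Col1a1, a fibrillar collagen, stood at 5618 and 5218, adjusted p = 0.519 by the authors' test. Pdgfra, Fn1 and Vim fell 1.84-fold, 2.13-fold and 1.55-fold, while Col3a1 rose 2.04-fold. No marker of the list was at 0 in either stage. The part of mesenchyme in the FGF values was not tested.

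Wnt genes moved both ways. Of the list, 11 of 37 measured members rose, 12 fell and 14 did not pass, with a median log2 ratio of 0.02 that turns to -0.10 with the means scaled to the sums without the largest genes. Groups by role were formed after the values were seen, so their counts only describe the members. Of 8 ligands, 4 rose, 1 fell and 3 did not pass, of 8 secreted antagonists, 1 rose, 5 fell and 2 did not pass, and of 12 receptors, 3 rose, 4 fell and 5 did not pass. Wnt4 stood at 23.1 in cervical loop cells and 85.7 in secretory ameloblasts (3.71-fold higher, adjusted p = 0.00258 by the authors' test), Wnt5a at 31.5 and 87.4 (2.78-fold higher), Wnt10a at 23.3 and 66 (2.83-fold higher) and Wnt7b at 3.35 and 7.73 (2.31-fold higher). Wnt3a had a larger ratio of means but did not pass (7.81 and 36.8, adjusted p = 0.0564 by the authors' test).

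Sfrp5, which binds Wnts outside the cell, stood at 15.3 and 0.312 (49.1-fold lower, adjusted p = 0.000385 by the authors' test). Sfrp2 stood at 809 and 54.6 (14.8-fold lower), Notum, an enzyme that inactivates Wnts, at 10.4 and 0.538 (19.2-fold lower), Dkk1 at 13.9 and 1.32 (10.6-fold lower) and Sostdc1 at 93 and 21.6 (4.31-fold lower). Dkk3 was the antagonist-related gene that rose (1.34-fold), and Wif1 did not pass (43.5 and 42.7, adjusted p = 0.771 by the authors' test). With 1 added to each mean the falls of Sfrp5, Notum and Dkk1 are 12.4-fold, 7.38-fold and 6.45-fold. Receptors were divided, with Lgr4 and Fzd6 3.3-fold and 2.75-fold higher and Fzd2 and Fzd7 2.63-fold and 2.38-fold lower. Axin2, a general target of Wnt signalling, did not pass (17.9 and 19.7, adjusted p = 0.721 by the authors' test), nor did Lef1 (9.03 and 6.93, adjusted p = 0.0543).

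BMP and TGF-beta genes moved both ways. Of the list, 12 of 33 measured members rose, 10 fell and 11 did not pass (median log2 ratio -0.19). Of 10 ligands, again grouped after the values were seen, 6 rose, 2 fell and 2 did not pass. Bmp3 stood at 21.6 and 141 (6.53-fold higher, adjusted p = 0.00141 by the authors' test), Bmp2 at 16.7 and 53.6 (3.21-fold higher) and Bmp7 at 28.7 and 90.0 (3.14-fold higher). Bmp5 fell 4.48-fold. Grem1, a gremlin that binds BMPs, stood at 32 and 13.1 (2.44-fold lower), while noggin (Nog, 2.5 and 1.8, adjusted p = 0.255 by the authors' test) did not pass. Tgfbr2, a TGF-beta receptor, stood at 47.2 and 162 (3.43-fold higher). The BMP target genes Id1, Id2 and Id3 did not move as one: Id3 fell 2.07-fold, Id2 rose 1.53-fold, and Id1 stood at 37.2 and 30.8, adjusted p = 0.254 by the authors' test.

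Hedgehog genes also divided. Of the list, 5 of 17 measured members rose, 6 fell and 6 did not pass (median log2 ratio -0.20). Shh, the epithelial ligand, was lower by its means but did not pass (152 and 39, adjusted p = 0.0849 by the authors' test). Scube1, a secreted protein of a family that helps release the ligand, stood at 85 and 7.99 (10.6-fold lower, adjusted p = 0.000336 by the authors' test), and its relative Scube2 rose 3.68-fold. Ptch1, a receptor and target, and Hhip, which binds the ligand, fell 1.48-fold and 2.28-fold. Gli2 stood at 19.6 and 57 (2.91-fold higher), Gli3 fell 1.43-fold, and Gli1, the usual target gene, did not pass (72.5 and 90.6, adjusted p = 0.516 by the authors' test). In the Notch and ectodysplasin list 3 of 20 rose and 4 fell, shares near those of all genes (2 fell with genes of a larger mean under 10 left out). Jag2, a Notch ligand, stood at 36.6 and 108 (2.95-fold higher), and of the fringe enzymes that tune Notch, Mfng rose 3.94-fold and Lfng fell 3.43-fold. Jag2 is also a marker of the stratum intermedium, a list with summed means of 352 and 582 and no marker at 0. Of its 8 members 2 rose, Jag2 itself and Alpl, and 6 did not pass. The count and the sums hold Jag2, so they do not describe that layer apart from it. The part of that layer in the Notch values was not tested.

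**Figure D3:**
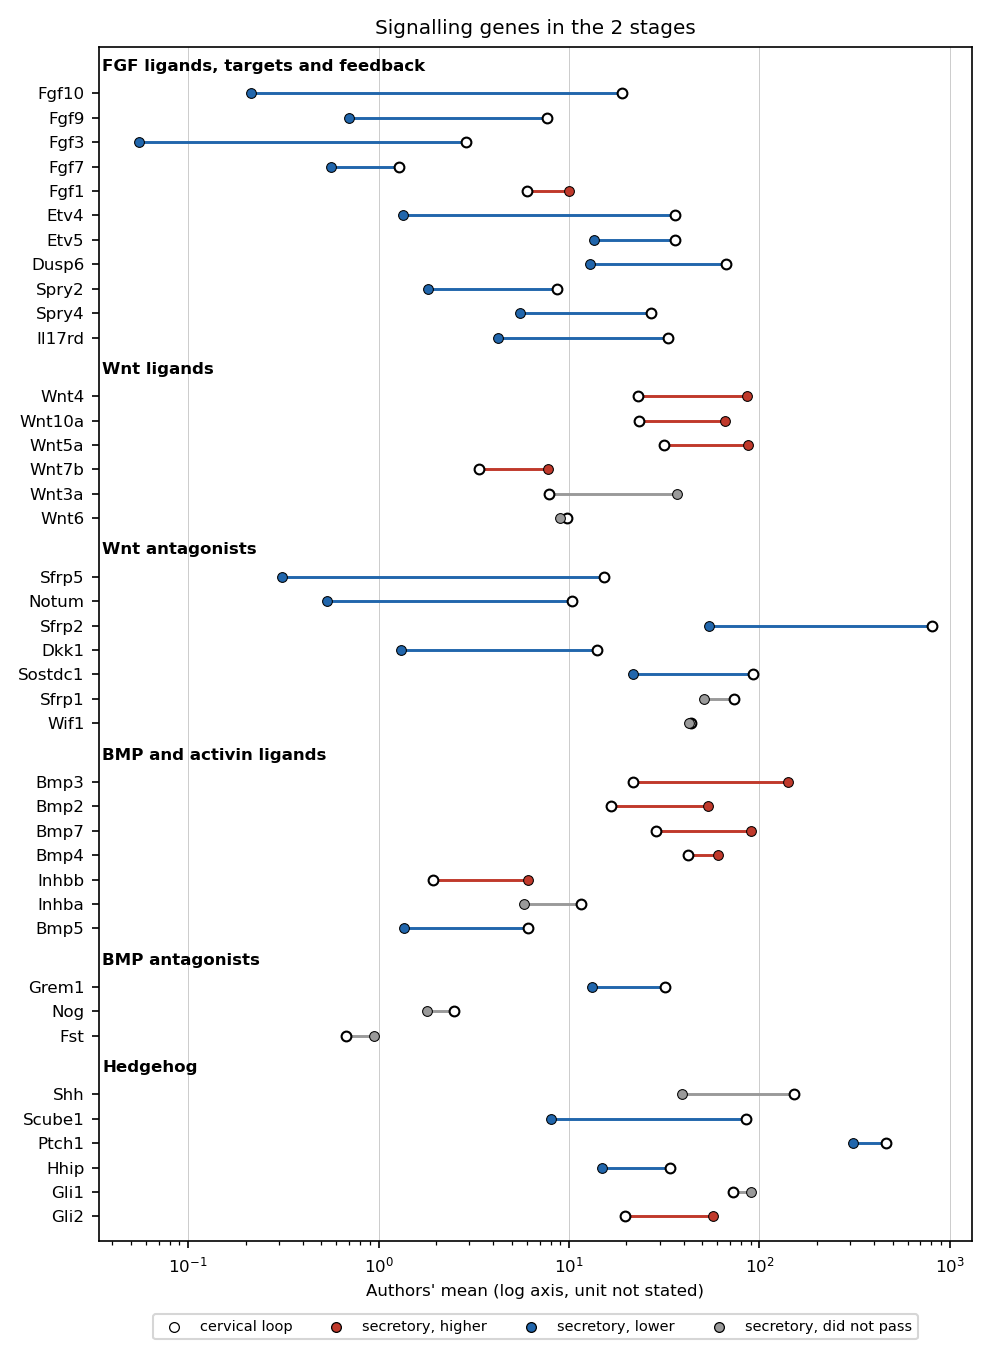
Authors' means (log axis, unit not stated) of signalling genes in cervical loop cells (open circles) and secretory ameloblasts (filled circles), red where higher, blue where lower and grey where the gene did not pass. Fgf10, Sfrp5 and Sfrp2 run far to the left in the secretory stage, while Wnt4, Bmp3 and Gli2 run to the right.

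Transcription factors gave the lowest ratios among genes ranked by the naming rule. Ascl5 (AmeloD), a dental epithelial factor, stood at 19.4 in cervical loop cells and 0.138 in secretory ameloblasts (140.1-fold lower, adjusted p = 0.000575 by the authors' test), and Sall3 at 24.6 and 0.195 (126-fold lower). Since the secretory values lie near the floor, the falls are 17.9-fold and 21.5-fold with 1 added to each mean. Sall1 fell 14.6-fold, Sox11 10.1-fold and the homeobox gene Lhx8 8.9-fold. Dlx5 and Msx1, homeobox factors of early tooth formation, fell 3.31-fold and 2.28-fold. Sox21, a factor of enamel epithelium, stood at 1.43 and 16.3 (11.4-fold higher, adjusted p = 0.00428 by the authors' test), Satb1 at 114 and 272 (2.38-fold higher) and Nkx2-3 at 5.23 and 16.7 (3.19-fold higher). With 1 added to each mean the falls of Sall1 and Lhx8 are 8.49-fold and 4.17-fold and the rise of Sox21 is 7.11-fold. Tp63, the master factor of stratified epithelium, rose 2.01-fold. Several factors known from ameloblast differentiation did not pass: Sp6 stood at 253 and 286, adjusted p = 0.602 by the authors' test, Dlx3 at 103 and 151, adjusted p = 0.065, Msx2 at 79.4 and 96.1, adjusted p = 0.207 and Runx2 at 107 and 94.2, adjusted p = 0.56. Of the 45 factors listed, 13 rose and 12 fell.

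The route of protein export rose in many small steps. Of 28 genes of entry into the endoplasmic reticulum 18 rose and 0 fell (median log2 ratio 0.52). Of 10 genes of the translocon and its partners 8 rose, with the channel gene Sec61a1 at 149 and 261 (1.75-fold higher, adjusted p = 0.00264 by the authors' test). Of 7 genes of the oligosaccharyltransferase, which adds N-glycans, 5 rose, with Stt3b at 72.6 and 145 (2-fold higher) and Ddost at 58.9 and 112 (1.9-fold higher). The signal peptidase subunits Sec11c and Sec11a, alternative catalytic chains, differed, Sec11c at 13 and 29.1 (2.24-fold higher) and Sec11a at 28.9 and 24.6, adjusted p = 0.0557 by the authors' test.

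The signal recognition particle delivers nascent proteins to this channel. Of 6 genes for its proteins and receptor 2 rose (Srp68 and Srpra, 1.49-fold and 1.45-fold). Its RNA, Rn7sl1, stood at 6952 and 16952 (2.44-fold higher, adjusted p = 0.0166 by the authors' test), and RF00017, an annotation family of the same RNA, at 11986 and 32750.2 (2.73-fold higher, adjusted p = 0.00749). These RNAs have many near-identical copies, so how reads were divided between them is uncertain. They were among the 10 largest means of both stages. Of the other genes among the 10 largest of both, AABR07015057.1 (13255 and 17772, adjusted p = 0.442 by the authors' test), AY172581.24 (8385 and 5090.4, adjusted p = 0.567), RF00100 (6868 and 5211, adjusted p = 0.0896) and Mt-co1 (3227 and 4599, adjusted p = 0.0542) did not pass, nor did Col1a1, given above. Of those among the 10 largest of the cervical loop alone, AC134224.1 rose (2189.6 and 3584), while Rmrp (2099.8 and 2471, adjusted p = 0.365 by the authors' test) and Col1a2 (2018 and 1930.3, adjusted p = 0.584) did not pass.

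Folding genes changed unevenly. Of 36, 17 rose, 3 fell and 16 did not pass. Ern1 (IRE1), the sensor that activates Xbp1, stood at 18 and 87.2 (4.83-fold higher, adjusted p = 0.00097 by the authors' test), Xbp1 at 28.1 and 78.8 (2.8-fold higher) and its target Dnajb9 at 6.75 and 23.7 (3.51-fold higher). Creb3l2, a membrane-bound factor of secretory cells, rose 2.23-fold. General chaperones had smaller ratios: Hspa5 (BiP) stood at 218 and 288 (1.32-fold higher), Hsp90b1 at 348 and 324, adjusted p = 0.388 by the authors' test and Calr at 381 and 377, adjusted p = 0.928. Ddit3 (CHOP), the pro-apoptotic factor of the stress response, did not pass (2.74 and 3.07, adjusted p = 0.486 by the authors' test), and Trib3 fell (0.727 and 0.332).

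Genes of vesicle transport between endoplasmic reticulum and Golgi rose in most cases. Of the list, 31 of 44 measured members rose, 1 fell and 12 did not pass (median log2 ratio 0.46). Surf4, a cargo receptor that speeds export of secreted proteins, stood at 181 in cervical loop cells and 708 in secretory ameloblasts (3.92-fold higher, adjusted p = 0.00119 by the authors' test), the largest fold of the list. Sec22b, a fusion protein of these vesicles, rose 2.4-fold and Mia2, of the exit sites, 1.92-fold. Of 10 genes of the outward coat, COPII, 6 rose, with Sec24d and Sec23b at 1.63-fold and 1.64-fold, while Sec23a (49.8 and 50.2, adjusted p = 0.786 by the authors' test) and Sec24a (29.8 and 26.4, adjusted p = 0.122) did not pass. Of 10 genes of the returning coat, COPI, 7 rose. The 108 genes of entry, folding and vesicles made up 1.66% and 1.63% of the summed means, and 1.96% and 2.47% of the sums without the 13 largest genes, so the direction of that share turns with the denominator. The UPRE core (TGACGTGG, both strands), tied to Xbp1 in other cells, stood in 6 of 38 promoters of the vesicle list and in 0.736% of all. It stood in 1 of 28 folding and 1 of 25 entry promoters. Of the 6 vesicle genes 4 rose and 2 did not pass, beside 31 of 44 that rose in the whole list.

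Genes of ribosomes went the other way. Of 38 cytosolic ribosomal proteins 20 fell and 1 rose (median log2 ratio -0.34), with Rpl4 at 524 and 417 (1.26-fold lower) and Rpsa at 445 and 305 (1.46-fold lower). Many of these genes have near-identical copies, so their single values are uncertain. Of 26 genes of ribosome biogenesis 19 fell and 0 rose (median -0.56), among them the nucleolar proteins Npm1 (144 and 77.3, 1.86-fold lower) and Nop56 (43.6 and 23.5, 1.86-fold lower). Of 20 aminoacyl-tRNA synthetases 1 rose, the glutamyl-prolyl enzyme Eprs (137 and 168, 1.22-fold), and 8 fell.

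Both listed proline synthesis genes rose: Pycr1 stood at 8.5 and 30.3 (3.56-fold higher, adjusted p = 0.000968 by the authors' test) and Aldh18a1 at 33.7 and 69.9 (2.07-fold higher). Psat1, of serine synthesis, stood at 13.6 and 2.08 (6.51-fold lower), and Asns, of asparagine synthesis, at 13 and 14.4, adjusted p = 0.434 by the authors' test. Amino acid transporters divided, with 8 of 24 higher and 9 lower, against 5 higher and 4 lower with genes of a larger mean under 10 left out. Slc7a5, which carries large neutral amino acids, stood at 40.1 and 105 (2.61-fold higher), and its partner Slc3a2 rose 1.35-fold. Slc7a11, the cystine exchanger, rose 3.63-fold. The glutamate transporter Slc1a3 and the glutamine transporter Slc1a5 fell 2.76-fold and 2.39-fold.

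Ion transport genes were higher in more than 1 role. Of the list, 26 of 46 measured members rose, 3 fell and 17 did not pass (median log2 ratio 1.18), and 1 fell with genes of a larger mean under 10 left out. The 46 genes made up 0.434% of the summed means in the cervical loop and 1.31% in the secretory stage. Of 17 genes of calcium handling 11 rose and 0 fell. Itpr1, the calcium release channel of the endoplasmic reticulum, stood at 109 in cervical loop cells and 1909 in secretory ameloblasts (17.6-fold higher, adjusted p = 0.000647 by the authors' test). Its summed transcript means were 17.3 and 1916 (111-fold higher) and include a transcript mean below 0, so the size of the rise differs between the deposited tables. Itpr3 rose 3.15-fold, while Itpr2 did not pass (21.7 and 26.1, adjusted p = 0.289 by the authors' test). The store sensor Stim1 stood at 25 and 88.1 (3.52-fold higher) and the entry channel Orai2 at 14.6 and 42.1 (2.89-fold higher). Pumps rose too: Atp2a2 (SERCA2), which refills the store, stood at 144 and 565 (3.92-fold higher), and Atp2b1, of the plasma membrane, at 132 and 648 (4.9-fold higher). Slc24a3, a sodium-calcium-potassium exchanger, rose 6.39-fold. Slc24a4, its relative of the maturation stage, had a larger ratio of gene means but did not pass (1.5 and 54.9, adjusted p = 0.0941 by the authors' test), and its summed transcript means were 38.1 and 46.1, a 1.21-fold ratio.

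Phosphate and citrate carriers rose. Slc13a5, the citrate transporter, stood at 11.5 and 688 (60.1-fold higher, adjusted p = 0.00163 by the authors' test), the second largest fold by the naming rule. Slc20a2 and Slc20a1, phosphate importers, stood at 49.4 and 308 (6.24-fold higher) and 36.6 and 107 (2.92-fold higher). Alpl, the phosphatase of mineralising tissue and of the stratum intermedium, rose 2.11-fold. Of 11 genes of bicarbonate, proton and chloride transport 4 rose. Among them, Slc4a4, a sodium bicarbonate cotransporter, stood at 14.5 and 86.5 (5.96-fold higher), and Slc4a2 and Cftr rose 1.97-fold and 3.89-fold. Car2, a carbonic anhydrase, did not pass (56.8 and 52.9, adjusted p = 0.413 by the authors' test), and Slc26a4 fell from 1.45 to below the floor. Fxyd4, a regulator of the sodium pump, had the largest fold by the naming rule (0.307 and 28.6, 93.2-fold higher, adjusted p = 0.000424 by the authors' test; 22.6-fold with 1 added to each mean). The pump subunit Atp1b1 rose 2.76-fold.

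**Figure D4:**
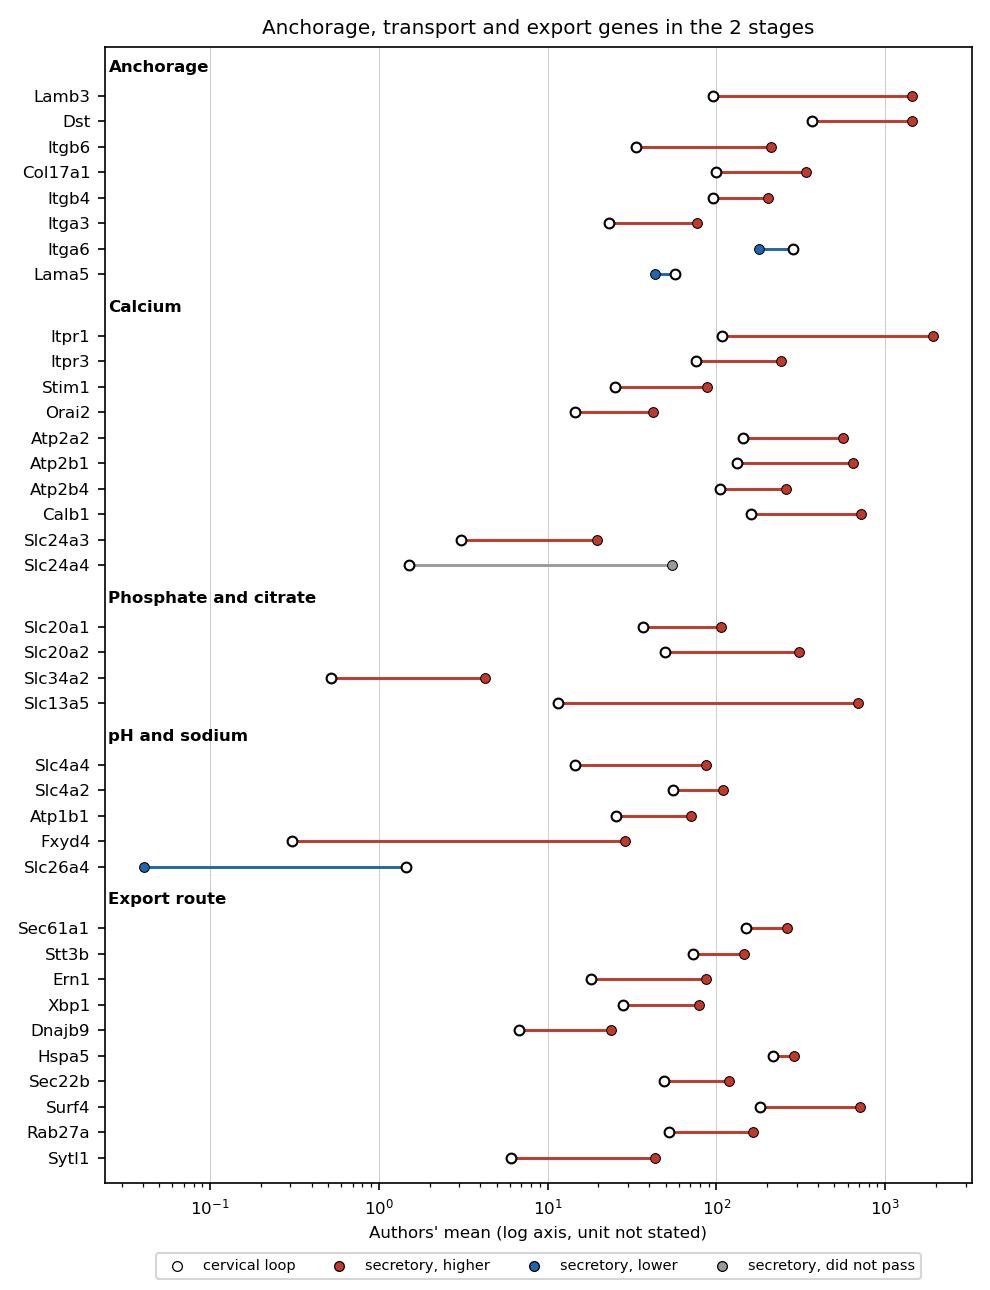
Authors' means (log axis, unit not stated) of anchorage, transport and export genes in cervical loop cells (open circles) and secretory ameloblasts (filled circles), red where higher, blue where lower and grey where the gene did not pass. Most lines run to the right, with Itpr1, Slc13a5 and Fxyd4 among the longest, and Itga6, Lama5 and Slc26a4 run to the left.

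Polarity and regulated release changed gene by gene. Of 35 exocytosis genes 12 rose and 4 fell (2 fell with genes of a larger mean under 10 left out). Rab27a, a GTPase that docks granules, stood at 52.2 and 164 (3.14-fold higher) and its effector Sytl1 at 6.03 and 43.3 (7.17-fold higher, adjusted p = 0.000424 by the authors' test), while the paralog Rab27b fell 2.26-fold. Stx3, an apical fusion protein, rose 2.16-fold, whereas Stx4 (11.1 and 11.1, adjusted p = 0.983 by the authors' test) and Stx2 (12 and 11.8, adjusted p = 0.803) did not pass. Of 41 genes of polarity and apical actin 19 rose and 7 fell. Coro6 and Phactr3, actin-linked genes, had very large folds from low values (0.441 and 24.5, 55.5-fold, and 0.417 and 13.5, 32.4-fold). With 1 added to each mean these were 17.7-fold and 10.2-fold, and from the summed transcript means 24.6-fold and 20.2-fold. Celsr1, Vangl2 and Prickle1, known from planar polarity, rose 3.09-fold, 2.48-fold and 2.34-fold, and Vangl1 and Prickle2 also rose. Scrib did not pass (36.4 and 31.8, adjusted p = 0.226 by the authors' test). The Wnt receptors also tied to planar polarity were divided. Fzd6 rose, as given above, while Fzd3 and Ror2 fell 1.72-fold and 1.32-fold. Of genes of the apical surface, Crb3 and Ezr rose 2.95-fold and 2.66-fold, and Pard6b, Prkci, Prkcz and Patj also rose. Pard6a and the ezrin partner Slc9a3r1 fell (1.13 and 0.472, and 6.04 and 2.88). Mpp5 (17.5 and 19.1, adjusted p = 0.386 by the authors' test) and Pard3 (43.3 and 46.2, adjusted p = 0.46) did not pass. Llgl2, a gene of the basolateral side, rose 3.08-fold. The myosin Myh9 rose 1.34-fold, and Myh10 and Myh14 fell 2.23-fold and 2.16-fold.

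Other genes were named by the rule of largest ratios and smallest p alone. Papln, which encodes a papilin-like matrix protein, stood at 24.4 and 1451 (59.4-fold higher, adjusted p = 0.000738 by the authors' test), Bnc1, a zinc finger gene, at 3.93 and 119 (30.1-fold higher), Kcna3, a potassium channel, at 1.56 and 44.4 (28.5-fold higher), Nxpe2 at 1.14 and 36.9 (32.3-fold higher) and Ngef at 0.553 and 15.6 (28.2-fold higher). With 1 added to each mean the rises of Kcna3, Nxpe2 and Ngef are 17.7-fold, 17.7-fold and 10.7-fold. The unnamed locus AABR07031193.1 stood at 70.7 and 2480.4 (35.1-fold higher). On the low side, Vwde stood at 41 and 0.536 (76.6-fold lower), Plppr1 at 16.7 and 0.283 (59-fold lower), Mpped1 at 31.1 and 0.802 (38.8-fold lower), Cacna1e, a calcium channel, at 22.8 and 0.897 (25.4-fold lower), Ntrk2, a neurotrophin receptor, at 21.2 and 0.926 (22.9-fold lower), Tmem132e at 26.7 and 1.2 (22.3-fold lower) and AABR07059875.2 at 13.5 and 0.152 (88.8-fold lower). Cyp26c1, an enzyme that breaks down retinoic acid, stood at 39.5 and 1.04 (37.9-fold lower). These secretory values are low. With 1 added to each mean the falls are 27.4-fold for Vwde, 13.8-fold for Plppr1, 17.8-fold for Mpped1, 12.5-fold for Cacna1e, 11.5-fold for Ntrk2, 12.6-fold for Tmem132e, 12.6-fold for AABR07059875.2 and 19.8-fold for Cyp26c1. The smallest p belonged to Cartpt, a neuropeptide gene, at 5.79 in the cervical loop and below the floor in secretory ameloblasts (adjusted p = 9.43e-05 by the authors' test). Rcn2, a calcium-binding protein of the endoplasmic reticulum, Acvr1b and Sema3c rose 3.74-fold, 2.16-fold and 2.97-fold and were also among the 10 smallest, as were Scube1, Ccna2, Meis1, Pbk and Cdkn3, which fell 10.6-fold, 8.31-fold, 3.19-fold, 7.51-fold and 6.67-fold (4.76-fold and 4.22-fold for the last pair with 1 added to each mean).

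Ucma, a cartilage matrix gene, was also among the lowest ratios (12 and 0.118, 102-fold lower; 11.6-fold with 1 added to each mean). Of 7 cartilage markers 1 rose and 3 fell, with summed means of 39.5 and 46.2. Most of the secretory sum is Acan, whose summed transcript means were 19.1 and 42.9. By their means 5 of the 7 markers were lower in the secretory stage (median log2 ratio of the list -0.77). Col2a1 fell 4.34-fold (2.72-fold with 1 added), and Acan rose 2.21-fold. Beside Ntrk2, 4 of 8 nerve and Schwann markers fell and 2 rose (summed means 109.6 and 112), with Ngfr at 38.6 and 6.44. With genes of a larger mean under 10 left out, 1 cartilage marker and 1 nerve marker fell. The part of cartilage or nerve in these values was not tested. Of the other marker lists, 3 of 10 endothelial markers rose and 0 fell. By their means all 10 were higher in the secretory stage (median log2 ratio of the list 0.37, summed means 205 and 279). Of myeloid markers 0 of 10 rose or fell, and by their means 8 were lower in the secretory stage. The part of endothelium or myeloid cells was not tested. Of 4 erythroid markers 0 rose or fell, 1 of 9 muscle markers fell, and 1 of 11 odontoblast and bone markers rose (Alpl). The other 10 odontoblast and bone markers did not pass, and each had the lower mean in the secretory stage (median log2 ratio of the list -1.03, summed means 1395 and 937). Of 8 epithelial markers 3 rose (Krt5, Krt14 and Tp63) and 3 fell, among them Krt18 and Epcam.

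Splicing regulators fell more often than they rose. Of 39, 22 fell and 2 rose (median log2 ratio -0.52). Khdrbs3 stood at 9.14 and 25.9 (2.83-fold higher, adjusted p = 0.000383 by the authors' test) and the epithelial regulator Esrp2 at 8.44 and 19.4 (2.29-fold higher), while its paralog Esrp1 did not pass (44.1 and 51.6, adjusted p = 0.103). Mbnl3 and Nova1 fell 5.79-fold and 7.08-fold (3.28-fold and 2.27-fold with 1 added to each mean), Hnrnpa1 2.04-fold and Srsf7 2.1-fold.

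Of the 9949 transcripts, 7.63% were higher and 8.41% lower in secretory ameloblasts. The authors' test for a change in transcript make-up, adjusted over 4050 genes, called 48 genes (1.19%). The ratio of the summed transcript means lay more than 1.5 times from the ratio of the gene means in 49 of 4009 genes with all 4 values above 0.1 (1.22%), and in 11 of 262 list members. No list member that passed had opposite directions in the 2 tables. Shares below are each transcript's part of the summed transcript means of its gene, as a description. Of the 48 genes, 31 had a summed mean of at least 10 in both stages and none below 0, and in 10 of these the leading transcript differed between stages. The gene mean rose for 16 of the 48, fell for 18 and did not pass for 14.

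Slc25a16, a mitochondrial carrier, exchanged its transcripts (adjusted p = 0.000239 by the authors' test). Slc25a16-201 went from 65% to 26.3% of the sum and its partner Slc25a16-202 from 35% to 73.7%. The means of these transcripts were 10.2 and 2.97 for the first, which fell, and 5.49 and 8.31 for the second, which rose. Both transcripts changed, in opposite directions.

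Bicd2, an adaptor of the dynein motor, moved by 1 transcript (adjusted p = 0.0461 by the authors' test). Bicd2-202 rose (16.6 and 41.2, adjusted p = 0.00208 by the authors' test) and went from 34.8% to 58.4%, while Bicd2-201 stood at 31.1 and 29.4. In Phldb1, which links the cell cortex to laminin-bound integrins, Phldb1-202 rose (29.7 and 118) and went from 37.4% to 57.5% (adjusted p = 0.0169 by the authors' test). Fmn1, an actin nucleator, kept Fmn1-201 near the same share, 44.2% to 44.3%, while Fmn1-203 fell from 39% to 9.32% and Fmn1-202 rose from 16.8% to 46.4%.

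The matrix genes Vcan and Frem1 fell as genes and changed in make-up. In Vcan, a large proteoglycan, Vcan-201, Vcan-203 and Vcan-204 fell (260 and 55.1 for the first, 220 and 66.5 for the last) and Vcan-202 rose (34.1 and 42.3), so that the share of Vcan-202 went from 5.2% to 21.6% (adjusted p = 0.000475 by the authors' test). The secretory transcript means of Vcan sum to 195.7, while its gene mean there was 99.4, so these shares rest on a sum that the gene table does not match. In Frem1, of the basement membrane, both transcripts fell and Frem1-202 went from 48.6% to 61.9% (adjusted p = 0.0294 by the authors' test). In Macf1, a linker of actin and microtubules, Macf1-202 stood at 115 and 114 and led only in the cervical loop, as the other 3 transcripts rose (adjusted p = 0.00842 by the authors' test). Macf1-201 and Macf1-204 carry equal means in both stages, so reads may not separate them. The leader also differed in Commd4, Ank2 and Ddx39b, with Commd4-202 going from 48.8% to 68.5%, Ank2-209 from 23.9% to 33.5% and Ddx39b-204 from 23.2% to 28.4%. None of these new leaders passed alone (adjusted p = 0.0817, 0.135 and 0.401 in that order by the authors' test).

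Members of the gene lists past this threshold were Ptbp1, Pard6a and Snap25. In Ptbp1, a splicing repressor, Ptbp1-202 went from 27.4% to 35.9% (adjusted p = 0.0274 by the authors' test), although neither it nor the leading Ptbp1-201 passed alone. Pard6a-201 stood at 0.0511 and 0.302 and Snap25-201 at 0.148 and 0.942, so the shares of these genes rest on low values. Genes named by the change in share that kept their leading transcript were Csnk2b, Nme4, Tacc2, Elf2, Abhd16a, Fdps, Sbf2, Prrc2b, Dclk1 and LOC100912489.

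**Figure D5:**
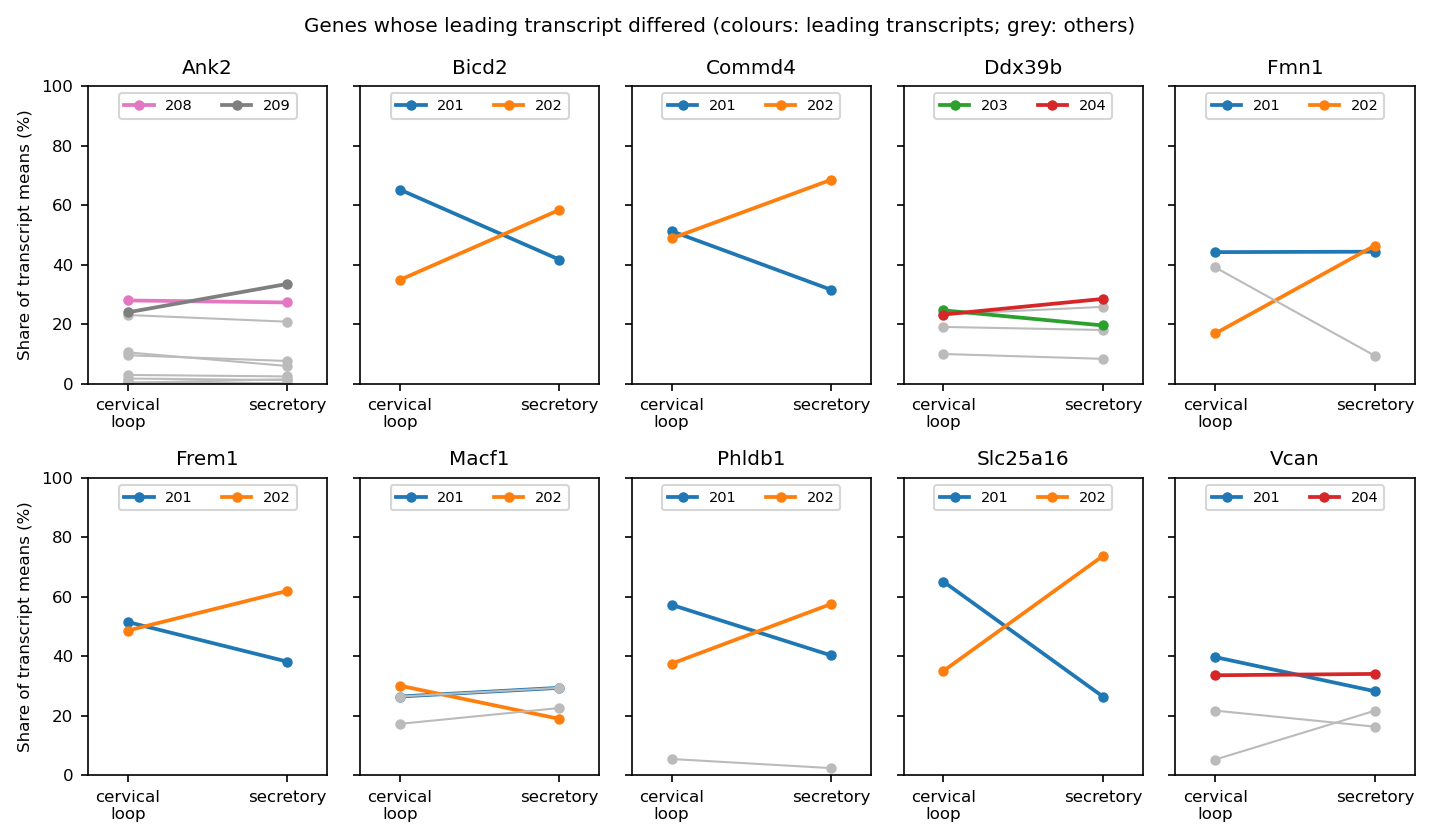
Share of each transcript in the summed transcript means of its gene (y axis, %) in cervical loop cells and secretory ameloblasts, for the 10 genes whose leading transcript differed. Thick lines are the leading transcripts, named by number in each panel, and thin grey lines the others; in Slc25a16, Bicd2 and Commd4 the leaders cross widely, while in Ank2 and Ddx39b the shares lie close together.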

How the data were processed

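RNA of dissected rat enamel organ cells was sequenced, with single-end reads of 75 bases per the labels' protocols. The submitters' processing notes name STAR 2.5.3a, Partek and rn6; the sources used here do not give counting, annotation, normalisation or the statistical model. The authors deposited 1 least-squares mean per gene or transcript and stage, treated here as a score because its unit is not stated, so depth behind a value is unknown and no interval is given. The deposited p-values and the deposited ratio of the means came from the authors' own model.

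The Benjamini-Hochberg correction was run here on the deposited p-values of 16516 genes, 9949 transcripts or 4050 genes (transcript make-up), with a threshold of 0.05. The gene values equal the authors' deposited table to 4.76e-16, and the transcript and make-up values differ from it by at most 0.00178 and 0.00292. A gene counts as higher or lower by which stage had the larger mean. No fold was formed with a mean at or below 0.1, while list medians and the plot of the lists use every ratio. Named were the 5 markers, list members by role, the 15 highest and 15 lowest ratios of called genes with both means above 0.1 and the larger at least 10, the 10 smallest p, the 10 largest means per stage, and for transcripts the 20 largest share changes with summed means of at least 10 and any list member past the threshold. There were 25 gene lists and 12 marker lists, described by counts and medians with no list test. The members and lists were chosen with earlier results of these data known, and role groups within lists and 8 further families after the values were seen. The adjustment was tested on simulated data. Alternatives were low-mean filters, another adjustment, pseudocounts of 1 and 5 and rescaled means. Some genes that the naming rule picks, and maturation stage values, are not reported here. Python 3.11.15, numpy 2.4.6, pandas 2.3.3, scipy 1.17.1 and matplotlib 3.10.9 were used.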

Additional observations from a re-analysis of the deposited data

How the results depend on the processing

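No paired analysis was possible because each stage is 1 deposited mean with no values of single rats, although the labels number libraries by rat, and for the same reason no replicate could be left out. Of 213 values under other settings 174 were classed as the same, which for counts allowed a change of up to 1.5 times. List medians so classed could also move, as for FGF from -0.90 to -0.57 with a pseudocount of 1. With rescaled means 5 list medians near 0 changed sign, to -0.10 for Wnt signalling, -0.083 for Notch and ectodysplasin, -0.056 for regulated exocytosis, -0.12 for epithelium markers and -0.065 for muscle markers. Adjusting over genes with a larger mean of at least 10 left 2149 genes higher and 2344 lower, against 2727 and 4169 in the main run. The excess of lower genes thus lay largely among genes with low means. The Benjamini-Yekutieli adjustment, stricter by construction, left 1273 genes higher, 1682 lower and 9 genes with changed transcript make-up. Genes with a fold of at least 2 numbered 1053 higher and 1637 lower in the main run, and 807 higher and 997 lower with a pseudocount of 1. They numbered 541 higher and 454 lower with a pseudocount of 5, and 690 higher and 627 lower with a larger mean of at least 10. Under these last settings more genes were higher than lower, the reverse of the main run. With a pseudocount of 1 the median log2 ratio was -2.49 for mitosis and -2.19 for the dividing cell markers. With rescaled means it was -0.47 for ribosomal proteins, -0.65 for splicing regulators, 4.88 for ameloblast markers and -2.91 for dividing cell markers, and 1 called gene changed direction. Of transcripts with a larger mean of at least 10, 334 were lower. Leading transcripts differed in 6 genes with summed means of at least 50 and in 2 where the leading share moved by at least 20 points. Without the 13 largest genes the secretory stage shares were 2.01% for laminin and hemidesmosome genes, 1.98% for ion transport, 2.47% for the secretory pathway and 0.102% for replication and mitosis. Of 74 list counts 12 moved by more than 1.5 times with a larger mean of at least 10, in part because members with low means were not tested. Besides those given with their lists, these were 0 FGF genes higher, 1 gene of entry into the endoplasmic reticulum lower, 1 dividing cell marker lower and 1 odontoblast and bone marker lower. A ratio of summed transcript means, added after the data were seen, kept the direction of the 11 list members it moved by more than 1.5 times.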

Other observations

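In all, 8 families outside the lists of the report were chosen after their values were seen, so their counts describe these genes and support nothing. Replication-linked histone genes fell almost throughout: of 35, 33 were lower and 0 higher. Hist1h1b, a linker histone, stood at 114 and 11.6 (9.85-fold lower). Some copies, such as Hist1h4m and Hist1h4b, carry the same values in both stages, so reads may be shared between copies and single values are uncertain.

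Genes of cholesterol synthesis and uptake were mostly lower. Of 24, 16 were lower, 1 higher and 7 did not pass. Hmgcs1, an early enzyme of the pathway, stood at 73.6 and 27.7 (2.66-fold lower) and Dhcr7 at 17.2 and 5.53 (3.12-fold lower).

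Enzymes that start mucin-type O-glycans divided, with more higher than lower. Of 12 Galnt genes 5 were higher and 2 lower, with Galnt12 at 7.89 and 92.6 (11.7-fold higher), Galnt6 at 10.7 and 82.9 (7.72-fold higher) and Galnt2 at 75.3 and 209.7 (2.78-fold higher), while Galnt7 stood at 11.6 and 5.57 (2.08-fold lower). Galnt3 did not pass (7 and 6.53, adjusted p = 0.488 by the authors' test).

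Cell recognition genes were mostly lower. Of 30 clustered protocadherins 26 were lower and 0 higher, and of 38 synaptic adhesion and receptor genes 20 were lower and 3 higher. The protocadherins of a cluster share sequence, so single values are uncertain. Of 20 semaphorins 4 were higher and 9 lower: Sema4b stood at 14.1 and 76.4 (5.43-fold higher) and Sema3e at 35.6 and 3.72 (9.58-fold lower). Of 15 tubulins 8 were lower and 1 higher, and of 37 proteasome genes 13 were lower and 1 higher.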
